A study of Zea mays with 24 samples.

Results

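The events described here are alternative splicing (AS) events of maize leaf whose inclusion level differed between 35°C and 31°C in opposite directions at developmental stages V4 and V5. The inclusion level, ψ, is the share of an event's transcripts that carry the alternative stretch, given here in percent, and differences of ψ are given in percentage points. Events were eligible if they were listed at both stages with the same type, gene and coordinates, had a ψ in all 3 libraries at 31°C and at 35°C of both stages, and had a mean of at least 20 reads in the 35°C libraries of each stage. They were selected on their mean ψ in the 31°C and 35°C libraries alone. Of 3358 eligible events in 2088 genes, 81 events in 68 genes had a mean ψ that was at least 8 points higher at 35°C than at 31°C at one stage and at least 8 points lower at the other. The 2 tables together list 31439 distinct events, of which 18730 are listed at both stages. The 81 events fall into 31 events (26 genes) that were higher at V4 and lower at V5, and 50 events (42 genes) that were lower at V4 and higher at V5, so that no gene holds events of both kinds. These are 0.923% and 1.49% of the eligible events. The counts follow from the selection and nothing is read from them.

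The plants were the inbred line W22, grown in chambers whose daytime temperature peaked at 31, 33, 35 or 37°C (the maximum daily temperature, MDT) and was cooler at night. The first fully expanded leaf was sampled at stage V4 (20 DAG, days after germination) and at stage V5 (27 DAG). There were 3 libraries for each of the 8 combinations of stage and MDT, 24 libraries in all. Stage, plant age, day of harvest and time spent in the chambers cannot be told apart. The labels name no transgene, mutation or chemical treatment, and 31°C is the lowest MDT of the series. Reads summed over all events ran from 1898461 to 2818842 per library at V4, leaving out 2 libraries at 31°C, and from 2662780 to 3378578 at V5. The 81 events together held between 4788 and 9623 reads per library. Because RNA came from pieces of leaf blade without the midrib, which hold several cell types, splicing that differs within cells and a different mix of cells cannot be told apart. The 3 libraries of a group came from different plants in a pair of chambers. Which chamber a library came from is not labelled, so its part in the results was not tested.

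In AS, 1 gene gives several mature RNAs because the spliceosome pairs splice sites in more than one way. An exon can be skipped (ES), an intron can be retained (IR), the end or the start of an exon can move to another 5′ or 3′ splice site (A5SS, A3SS), or either exon of a pair can be used in place of the other (MXE). IR is a common form of AS in plants. A retained intron, or a stretch whose length is not a multiple of 3, often brings an early stop codon, and such RNAs can be held in the nucleus or degraded by nonsense-mediated decay. Serine/arginine-rich (SR) proteins bind the pre-mRNA and help to choose the sites, and plant SR genes are themselves alternatively spliced under heat and other stresses.

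The 81 events were 38 IR (46.9%), 17 A3SS (21.0%), 10 A5SS (12.3%), 10 ES (12.3%) and 6 MXE events (7.41%). Among all eligible events the shares were 35.2% IR, 28.5% A3SS, 13.0% A5SS, 20.6% ES and 2.65% MXE. Retained introns of the 81 events had a median length of 302 bases (range 73 to 3050), against 388 bases among all eligible IR events. The length was a multiple of 3 in 8 of 38 introns (21.1%), against 36.9% of eligible introns. For ES the share was 5 of 10 (50%) against 42.3%, for A3SS 8 of 17 (47.1%) against 57.7%, and for A5SS 4 of 10 (40%) against 41.6%. A skipped exon had a median of 162 bases against 111, and the stretch between alternative 5′ splice sites a median of 217 bases against 33. Alternative 3′ splice sites lay close together in both sets, with medians of 21 and 15 bases. These shares and medians are descriptions without a test, and several events of a gene can share a splice site. In 9 genes more than 1 event was selected, 3 events in 4 genes and 2 events in 5 genes.

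The libraries at 31°C and 35°C chose the events, so their values are given as a description. In the 31 events that were higher at V4, the median difference between 35°C and 31°C was 11.4 points at V4 (range 8.10 to 31.9) and -13.8 points at V5 (range -27.1 to -8.23). In the other 50 events it was -13.8 points at V4 (range -37.4 to -8.13) and 13.0 points at V5 (range 8.13 to 40.9). The 3 libraries at 35°C did not overlap with the 3 at 31°C in 32 of 81 events at V4 and in 40 of 81 at V5, where 22.9% and 28.5% of all eligible events did not overlap. At both stages, and in opposite directions, 19 of 81 events had no overlap, against 1.4% of eligible events. All of these counts carry the selection.

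Just inside the limit were an A5SS event of Zm00001d031992 (8.10 points at V4 and -8.23 at V5), and 2 events that tied at a smaller shift of 8.13 points, an IR event of Zm00001d013499 (-21.8 and 8.13) and an A3SS event of Zm00001d052070 (-8.13 and 8.73). Just outside were an IR event of Zm00001d029366 (-7.87 and 16.9) and an A3SS event of Zm00001d018517 (7.77 and -19.0).

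The medians over the events in each library show how the 4 MDTs compare. For the 31 events that were higher at V4, the median ψ in the V4 libraries was between 39.6% and 40.3% at 31°C, between 48.2% and 51.6% at 33°C, between 51.5% and 58.4% at 35°C and between 40.3% and 45.7% at 37°C. At V5 it was between 41.7% and 49.7% at 31°C, between 35.9% and 43.7% at 33°C, between 25.3% and 32.6% at 35°C and between 38.4% and 44.9% at 37°C. For the 50 other events, the V4 medians were between 52.6% and 57.6% at 31°C, between 45.5% and 49.8% at 33°C, between 36.1% and 38.7% at 35°C and between 47.7% and 52.0% at 37°C. At V5 they were between 44.6% and 48.2% at 31°C, between 49.9% and 54.1% at 33°C, between 63.1% and 65.7% at 35°C and between 45.4% and 49.6% at 37°C. At 37°C, which did not choose the events, the libraries of the 2 stages overlapped in both sets. At 33°C the gap between the stages was smaller than at 35°C. The stages did not overlap there in either set, although in the 50 events the highest V4 library (49.8%) and the lowest V5 library (49.9%) nearly met.

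**Figure D1:**
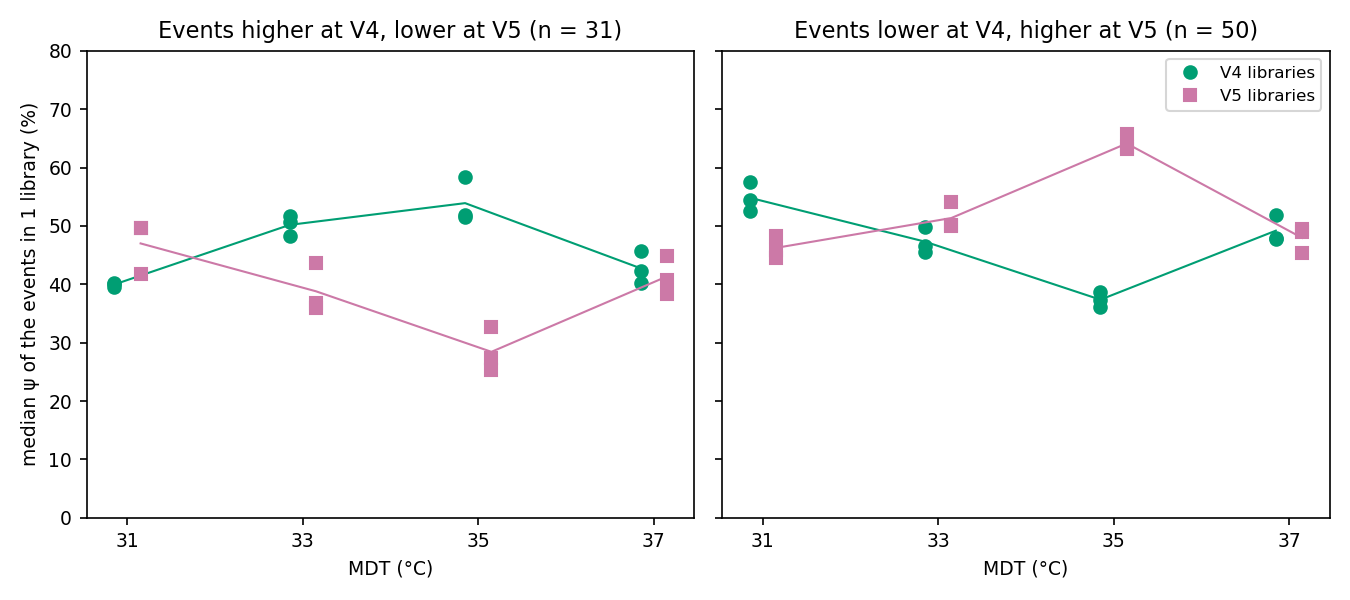
Median ψ (%) of the events in each library against MDT (°C), for the 31 events higher at V4 and lower at V5 (left) and the 50 events lower at V4 and higher at V5 (right). Circles are V4 libraries, squares are V5 libraries and lines join the means of 3 libraries; the stages lie furthest apart at 35°C, which chose the events, and overlap at 37°C.

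The 33°C and 37°C libraries were not used to choose the events, so they can show whether the stages also differed in opposite directions between another pair of MDTs. The stage difference of the 37°C/33°C values had the sign of the 35°C/31°C one about as often as among all eligible events. That sign can be the same without opposite directions at the stages. The difference between 37°C and 33°C at V5 minus that at V4 had the sign of the corresponding 35°C/31°C value in 36 of 81 events (44.4%), against 1619 of 3348 eligible events (48.4%). Its median in that direction was -1.34 points in the 81 events and -0.17 points in all eligible events, while its median absolute size was 8.61 and 4.58 points. In 6 of 81 events (7.41%) the 37°C/33°C differences of the stages were opposite by at least 8 points each, against 106 of 3358 eligible events (3.16%). In 1 of the 81 events both differences were at least 8 points in the direction of that stage's own 35°C/31°C value, against 147 of the 3358 eligible events, whose directions at the stages may be the same. This event was an 82-base intron of Zm00001d038847, named after its values were seen. Its 37°C/33°C differences were 10.7 points at V4 and -12.5 points at V5, with an FDR of 0.68 and 0.40.

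**Figure D2:**
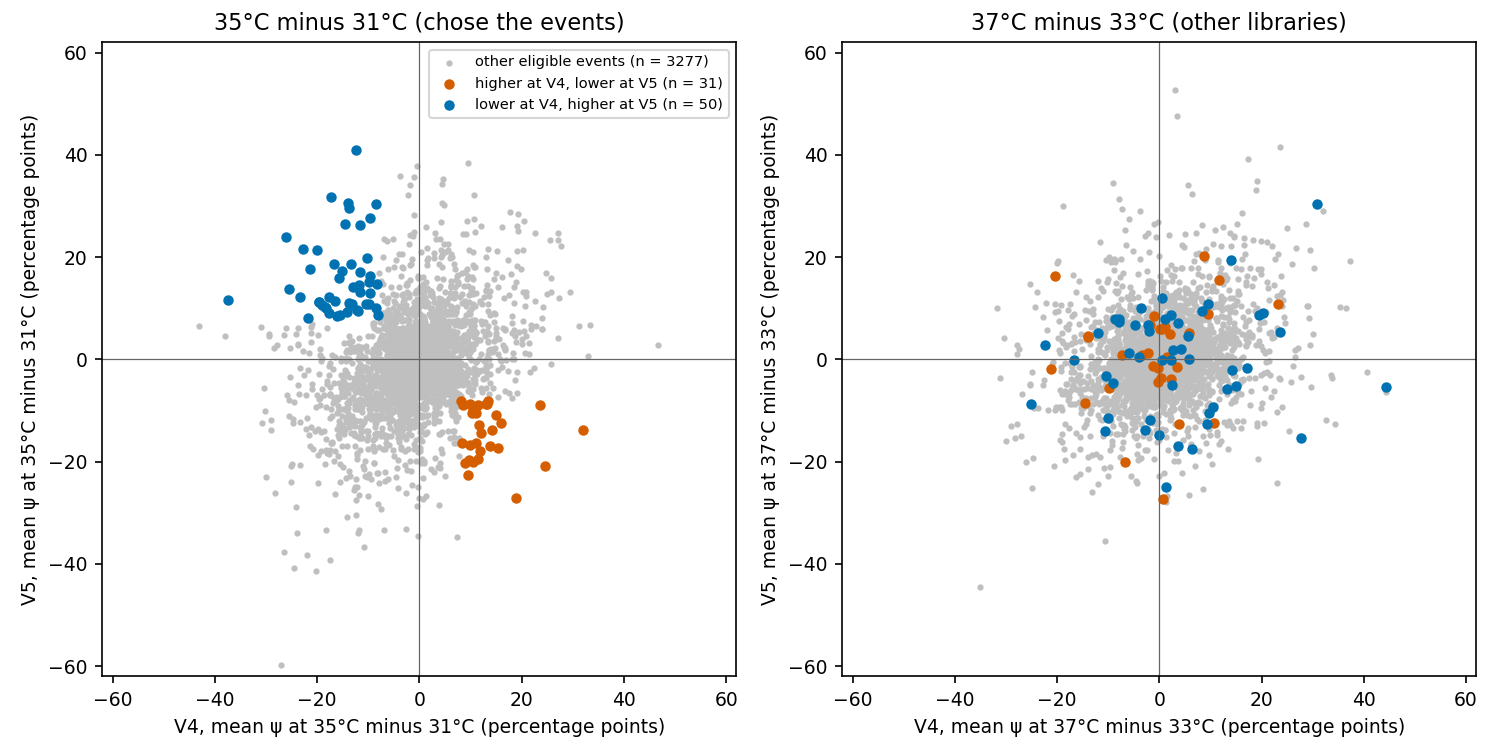
Difference of mean ψ (percentage points) at V4 (x axis) against V5 (y axis) for 35°C minus 31°C (left) and 37°C minus 33°C (right). Each point is 1 of the 3358 eligible events, with the 31 and 50 selected events in orange and blue; the colours occupy opposite corners on the left, as the selection requires, and mix around 0 on the right.

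Inclusion and skipping reads of every event were tested with a quasi-binomial model that uses the spread between libraries, and an event was called at an FDR of at most 0.01, adjusted over all events of its type, and a difference above 5 points. All 81 events could be tested in each of the 5 comparisons that use only the 33°C and 37°C libraries. In the test of whether the 37°C/33°C difference changed between the stages, none of the 81 events was called. The calls were 24 of all 5797 tested events (0.414%) and 24 of 3269 eligible events. The smallest FDR among the 81 events was 0.107, and 12 of them (14.8%) had an unadjusted p under 0.05, against 14.8% of eligible events. Of these 12 events, 4 (33.3%) had the direction of the 35°C/31°C values, against 223 of 485 eligible events with such a p (46.0%). With edgeR and with limma, none of the 81 was called either.

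For 37°C/33°C at V4, none of the 81 events was called. The calls were 19 of all 6206 events (0.306%) and 19 of 3280 eligible events. Of the 81 events, 13 (16.0%) had an unadjusted p under 0.05, against 19.2% of eligible events. edgeR called 1 of the 81 events here and limma none. For 37°C/33°C at V5, 1 of the 81 events was called. The calls were 61 of all 8326 events (0.733%) and 60 of 3344 eligible events. Of the 81 events, 14 (17.3%) had an unadjusted p under 0.05, against 23.1% of eligible events.

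The event called at V5 is the inclusion of a 125-base exon of Zm00001d014091 (chromosome 5, 32001946 to 32002070, minus strand), a gene with no annotation in the sources used here. At V5 its ψ was 19.3%, 11.7% and 20.4% at 33°C and 49.0%, 46.8% and 46.9% at 37°C. The exon was included more often at 37°C in all 3 libraries, without overlap, and ψ rose by 30.4 points (log odds ratio 1.51, SE 0.21, FDR 0.0036). The 37°C libraries held 60, 34 and 39 inclusion reads against 34, 21 and 24 skipping reads. At V4 ψ was 15.8%, 8.3% and 12.5% at 33°C and 43.7%, 47.9% and 37.8% at 37°C, again without overlap. That difference of 30.9 points had an FDR of 0.015 and was not called, whereas it was called with edgeR (FDR 0.0083) and when only events with a value in all 3 libraries of each group were tested (FDR 0.0036). With limma on logit-transformed ψ neither was called (FDR 0.066 at V5 and 0.16 at V4). The change of this exon from 33°C to 37°C thus had the same direction at both stages, and the stages differed by -0.48 points (FDR 0.97). At 35°C, which chose the event together with 31°C, ψ was 13.9%, 10.4% and 13.8% at V4 and 38.6%, 33.5% and 28.5% at V5. The event was selected as lower at 35°C than at 31°C at V4 and higher at V5.

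The stages were also compared directly at the MDTs that were not used in the selection. At 33°C, 3 of the 81 events (in 2 genes) differed between V5 and V4. The calls were 172 of all 6931 events (2.48%) and 154 of 3314 eligible events. limma called none of the 81 here and edgeR called 5. An unadjusted p under 0.05 was found for 29 of 81 events (35.8%) against 29.8% of eligible events. Of these 29 events, 21 (72.4%) differed in the direction of the 35°C/31°C values, against 62.9% of the eligible events with such a p. At 37°C none of the 81 events was called, none with edgeR and none with limma. The calls were 76 of all 7063 events (1.08%) and 74 of 3312 eligible events. Of the 81 events, 14 (17.3%) had an unadjusted p under 0.05, against 22.6% of eligible events. Of these 14 events, 13 (92.9%) had that direction, against 65.3%. These shares compare unlike sets. The 35°C/31°C stage difference that sets the direction had a median absolute size of 28.4 points in the 81 events and 4.45 points in eligible events. Events that share a gene are also not independent of each other. Over all 81 events, called or not, the stage difference had that direction in 47 (58.0%) at 33°C and in 45 (55.6%) at 37°C. Among eligible events the shares were 55.8% and 54.7%. The medians in that direction were 4.46 points at 33°C and 1.40 points at 37°C, against 0.64 and 0.46 points in eligible events. The shares over all 81 events were thus near those of all eligible events, whereas the medians were larger. Stage differences were also larger without regard to direction. Their median absolute size was 9.83 against 4.33 points at 33°C and 6 against 3.7 points at 37°C.

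Of the 3 events that differed between the stages at 33°C, 2 belong to Zm00001d048524 on the plus strand of chromosome 9. They are the inclusion of a 901-base exon (157777630 to 157778530) and an A5SS event of 1014 bases (157777517 to 157778530) that ends at the same base, so the pair is not independent. ψ of the exon was 51.0%, 60.0% and 49.6% at V4 and 83.3%, 94.7% and 98.2% at V5. The exon was thus included more often in every V5 library, by 38.5 points (log odds ratio 2.27, SE 0.39, FDR 0.0018). The A5SS event differed by 40.5 points (FDR 0.0013). The V5 libraries held 388, 377 and 382 inclusion reads against only 11, 3 and 1 skipping reads of the exon. At 37°C, ψ of the exon was 62.3%, 67.5% and 62.3% at V4 and 91.8%, 75.7% and 80.9% at V5, without overlap, and this difference of 18.8 points was not called (FDR 0.13).

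The selection rested on the other MDTs of this gene. At V4 the exon was at 81.6%, 76.7% and 81.3% at 31°C and at 65.7%, 61.8% and 56.6% at 35°C. At V5 it was at 86.9%, 86.9% and 80.8% at 31°C and at 97.0%, 94.7% and 93.7% at 35°C. Every V5 library was thus at 75.7% or above. The V4 libraries at higher MDTs lay below all of those at 31°C. Another selected event of the gene, an A3SS event of 3056 bases that starts at the same base as the exon, was at 61.0%, 57.0% and 62.1% at 31°C and at 46.8%, 45.1% and 38.3% at 35°C at V4. At V5 it was at 68.6%, 69.7% and 60.8% at 31°C and at 89.9%, 84.2% and 81.1% at 35°C. Its stage difference at 33°C of 41.9 points had an FDR of 0.023.

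The remaining called event is the retention of a 298-base intron of Zm00001d037200 (chromosome 6, 115547441 to 115547738, plus strand). At 33°C it was retained in 55.2%, 75.0% and 53.8% at V4 and in 31.0%, 18.8% and 32.5% at V5. Retention was lower in every V5 library, by -33.9 points (log odds ratio -1.46, SE 0.32, FDR 0.0088). The FDR rose to between 0.010 and 0.037 when V4 33°C replicate 1 or 2 or V5 33°C replicate 1 or 2 was left out, which ended the call. In the libraries that chose it, V4 had 50.4%, 40.0% and 33.8% at 31°C and 75.0%, 44.8% and 61.3% at 35°C, which overlap. V5 had 36.5%, 51.9% and 38.5% at 31°C and 21.1%, 13.7% and 10.7% at 35°C, which do not. At 37°C the intron was at 40.0%, 46.4% and 34.4% at V4 and at 16.8%, 33.6% and 26.4% at V5, a difference of -14.7 points with an FDR of 0.19.

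Zm00001d037200 and Zm00001d048524 are also 2 of the 12 genes with the largest shift at the stage where they shifted less, 1 event a gene. The gene Zm00001d048524 counts here by its A3SS event, which was not called, and not by its called exon. The other 10 follow, beginning with the largest. None of their genes has an annotation in the sources used here, and their differences between 35°C and 31°C chose them. The first was the retention of a 306-base intron of Zm00001d019792 (chromosome 7, 62169266 to 62169571, plus strand). At V4 ψ was 34.7%, 66.3% and 63.6% at 31°C and 32.3%, 19.7% and 34.6% at 35°C. The V5 libraries had 46.6%, 36.4% and 20.8% at 31°C and 69%, 49.9% and 56.7% at 35°C. The groups did not overlap at either stage, although they nearly touched at both. The 31°C values rested on a mean of 16 reads at V4 and 10 reads at V5, against 84 and 114 reads at 35°C. An A5SS event with the same first base (254 bases) and an 81-base intron upstream of it were selected too and were also lower at V4 and higher at V5.

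In Zm00001d003616, an A3SS event of 3 bases (chromosome 2, 50482005 to 50482007, minus strand) had the opposite sense. At V4 the longer form had 25.5%, 19.0% and 9.4% at 31°C and 33.8%, 54.5% and 39.5% at 35°C. At V5 it had 36.2%, 31.0% and 44.0% at 31°C and 24%, 16.4% and 8.0% at 35°C. The groups did not overlap at either stage. A stretch of 3 bases leaves the reading frame unchanged where it lies in coding sequence. At 33°C the means were 18.6% ± 10.8 (SD, n = 3) at V4 and 30.1% ± 8.52 (SD, n = 3) at V5, nearer to 31°C than to 35°C at both stages.

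A 203-base intron of Zm00001d007401 (chromosome 2, 230852632 to 230852834, minus strand) was retained in 55.1%, 86.8% and 56.8% at 31°C and in 48.8%, 51.8% and 37.8% at 35°C at V4. At V5 it was retained in 51.4%, 60.8% and 65.6% at 31°C and in 86.4%, 86.8% and 68.8% at 35°C. One of the V4 31°C libraries (86.8%) stood well above the other two. At 37°C the means were 71.0% ± 4.55 (SD, n = 3) at V4 and 72% ± 15.5 (SD, n = 3) at V5, and the difference of 1.00 points had an FDR of 0.92.

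An A3SS event of 10 bases in Zm00001d045574 (chromosome 9, 27082734 to 27082743, plus strand) had a mean of 393 reads at V4 35°C and 169 at V5 35°C. The V4 libraries were at 75.0%, 61.7% and 77.7% at 31°C and at 51.2%, 38.3% and 60.7% at 35°C. The V5 libraries were at 43.4%, 30.3% and 32.2% at 31°C and at 52.8%, 46.2% and 59.9% at 35°C. The stages thus lay apart at 31°C and together at 35°C, where the V4 and V5 libraries overlapped. At 33°C the V4 libraries (84.8%, 85.9% and 75.2%) lay above those of V5 (38.7%, 69.8% and 28.0%). That difference of -36.5 points had an FDR of 0.032 and was not called.

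**Figure D3:**
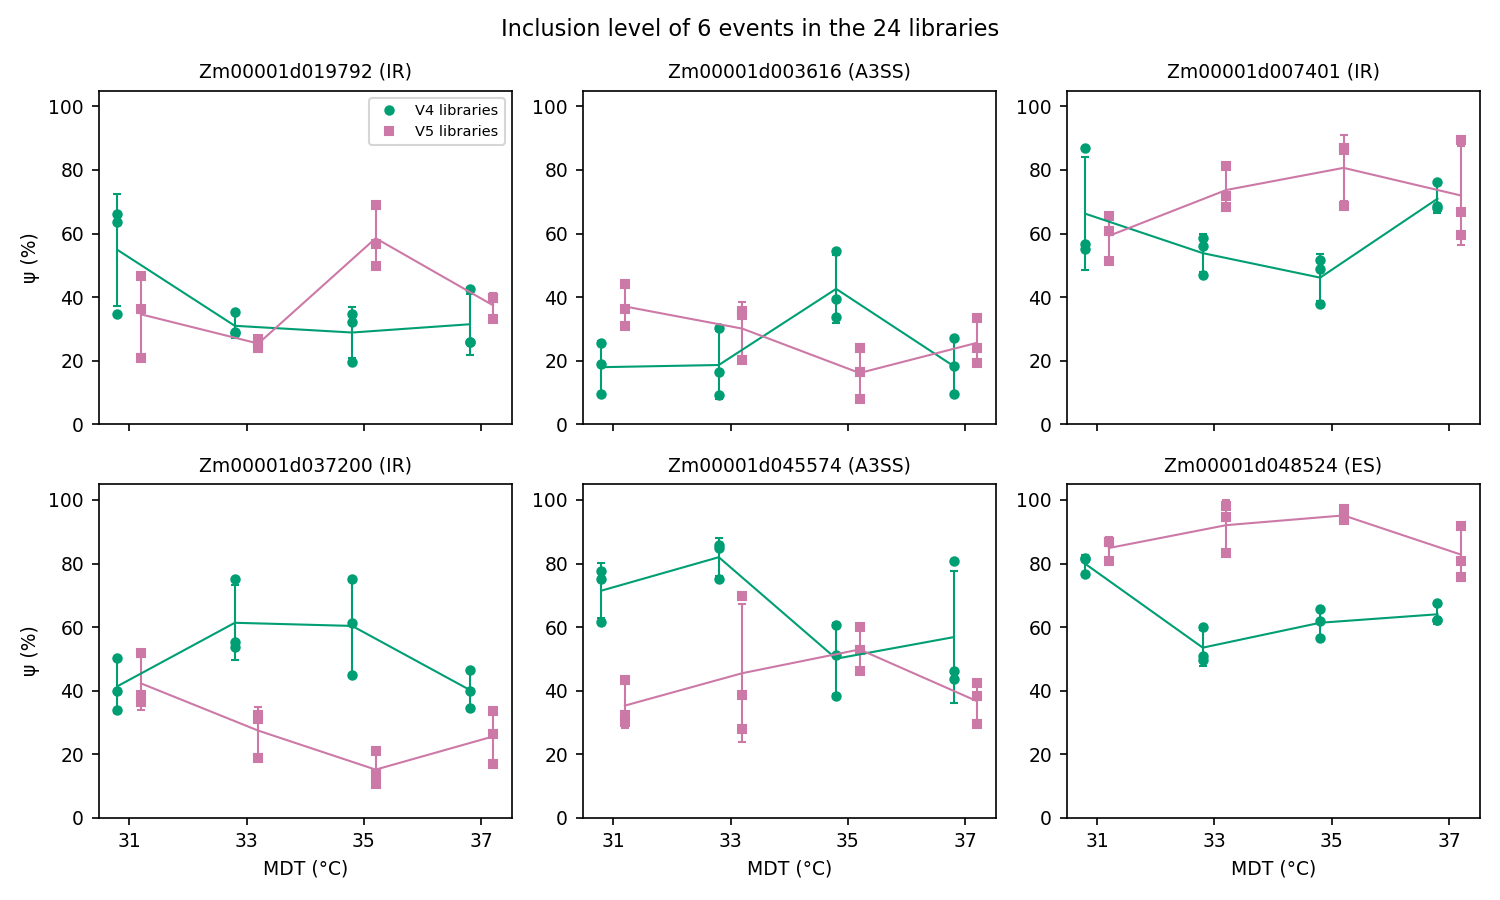
ψ (%) against MDT (°C) of 6 selected events. All but the exon of Zm00001d048524, drawn as a called event, are among those with the largest shifts at both stages. Points are single libraries (circles V4, squares V5), and lines and bars give mean and SD of 3 libraries; the V4 and V5 lines cross or part between 31°C and 35°C, and the bars are wide in several panels, as at V4 31°C of Zm00001d019792 (SD 17.5 points).

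In Zm00001d050936 (chromosome 4), a 143-base intron (132629781 to 132629923) and an A3SS event that ends at its last base were both selected. The intron was at 54.4%, 68.2% and 57.0% at 31°C and at 70.1%, 33.8% and 23.9% at 35°C at V4, so that the 35°C libraries lay on both sides of those at 31°C. In the V5 libraries the intron was at 44.5%, 41.4% and 32.4% at 31°C and at 77.3%, 67.9% and 68.6% at 35°C, without overlap. The difference at V4 of -17.3 points was smaller than the SD of its 35°C libraries (24.3 points).

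The only event from a gene model that was predicted from the reads, BGI_novel_G002634 on chromosome 9, was the inclusion of a 253-base exon. It was at 37.9%, 39.6% and 25.9% at 31°C and at 18.0%, 27.0% and 11.0% at 35°C at V4. In the V5 libraries the exon was at 56.9%, 24.1% and 42.6% at 31°C and at 48.1%, 70.7% and 52.7% at 35°C. The groups overlapped at both stages.

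In Zm00001d006682 a 218-base intron on chromosome 2 was at 8.6%, 25.1% and 46.3% at 31°C and at 43.0%, 48.6% and 34.3% at 35°C at V4. V5 had 41.0%, 31.1% and 19.3% at 31°C and at 15.2%, 17.7% and 6.7% at 35°C. The V4 libraries overlapped and those of V5 did not. All 4 of these groups rested on means between 20.7 and 27.3 reads.

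A 1279-base intron of Zm00001d048171 on chromosome 9 was at 32.7%, 56.8% and 44.4% at 31°C and at 20.4%, 47.0% and 21.2% at 35°C at V4. V5 had 40.9%, 41.9% and 60.2% at 31°C and at 60.5%, 61.0% and 73.4% at 35°C. The V4 groups overlapped, and those of V5 lay just apart. A 736-base exon within this intron was selected as well, with -19.1 points at V4 and 10.6 points at V5.

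In Zm00001d027788 on chromosome 1, the first of a pair of mutually exclusive exons was used in 50.7%, 43.6% and 65.9% at 31°C and in 22.4%, 54.8% and 39.4% at 35°C at V4. At V5 it was used in 73.5%, 31.2% and 10.6% at 31°C and in 67.3%, 48.1% and 79.1% at 35°C. The V5 31°C libraries spanned more than the difference between the means (SD 32.1 points, difference 26.4 points). The last of the 12, an 864-base intron of Zm00001d040342 on chromosome 3, was at 18.1%, 22.7% and 31.8% at 31°C and at 10.7%, 9.9% and 10.2% at 35°C at V4. V5 had 14.5%, 21.9% and 18.1% at 31°C and at 66.8%, 29.2% and 50.0% at 35°C, and the groups did not overlap at either stage.

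Some events with smaller shifts had closely matching libraries in some or all of their groups. They are named here after their values were seen. Their 31°C and 35°C values chose them, so they are examples and not a test of the opposite shifts. The event with the most reads was the retention of a 520-base intron of Zm00001d040979 (chromosome 3, 87676068 to 87676587, minus strand). At V4 it was retained in 15.2%, 15.1% and 17.1% at 31°C, in 2.6%, 2.7% and 4.1% at 33°C, in 3.2%, 3.5% and 3.8% at 35°C and in 5.6%, 5.1% and 5.6% at 37°C. At V5 it was retained in 11.8%, 13.0% and 10.9% at 31°C, in 6.2%, 7.4% and 9.2% at 33°C, in 20.5%, 23.0% and 21.1% at 35°C and in 7.4%, 8.2% and 6.8% at 37°C. The SD of each of the 8 groups was at most 1.51 points, and 31°C and 35°C did not overlap at either stage. The highest level was at 31°C at V4 and at 35°C at V5.

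The reads behind these values differed between groups. At 35°C the V4 libraries held 246, 277 and 275 reads of the retained intron against 1668, 1677 and 1568 reads of the spliced form. The V5 libraries held 557, 629 and 532 against 480, 468 and 443. Counts of the retained form are larger relative to ψ because a longer stretch collects more reads. The mean number of reads of the event was 184 at V4 33°C and 1904 at V4 35°C, against 375 and 1036 at V5. In the tests that do not use 31°C or 35°C, retention was higher at V5 by 4.46 points at 33°C (FDR 0.0044) and by 2.03 points at 37°C (FDR 0.0040), both under the limit of 5 points. The stage difference of the 37°C/33°C values was -2.42 points (FDR 0.11).

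A 908-base intron of Zm00001d016382 (chromosome 5, 160270446 to 160271353, plus strand) had a similar course with fewer reads. At V4 it was at 22.6%, 30.6% and 20.9% at 31°C and at 14.6%, 13.2% and 16.6% at 35°C. At V5 it was at 23.8%, 22.6% and 15.4% at 31°C and at 31.5%, 31.5% and 31.4% at 35°C. At 33°C and 37°C the V5 means were 11.9% ± 2.24 (SD, n = 3) and 18.7% ± 2.30 (SD, n = 3), so 35°C was the highest of the 4 MDTs at V5. In Zm00001d018894, an A3SS event of 2 bases (chromosome 7) was at 57.5%, 61.1% and 65.9% at 31°C and at 45.8%, 52.1% and 45.9% at 35°C at V4. V5 had 52.9%, 52.0% and 46.2% at 31°C and at 62.2%, 60.7% and 60.2% at 35°C. At 37°C the stages were at 56.4% ± 0.76 and 56.7% ± 0.59 (SD, n = 3 each).

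The study names 15 genes of splicing, signalling and development in these samples, so they are not independent of the data. Of these, 11 genes had 47 eligible events, and 3 events in 3 genes were among the 81. SR45a, the SR gene that the study examined most closely, had 8 eligible events and none was selected. SR34 (Zm00001d040672), an SR protein of splice site choice, had 10 eligible events, of which 1 was selected, an A3SS event of 21 bases (chromosome 3, 57180599 to 57180619, minus strand). At V4 its longer form was at 76.9%, 73.4% and 75.4% at 31°C and at 69.8%, 71.8% and 53.6% at 35°C. At V5 it was at 73.7%, 48.9% and 65.3% at 31°C and at 74.0%, 91.0% and 82.2% at 35°C. The groups did not overlap at either stage, although at V5 they nearly met. At 37°C the means were 64.3% ± 5.12 (SD, n = 3) at V4 and 63.7% ± 13.8 (SD, n = 3) at V5, and the stage difference had an FDR of 0.98.

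NF-YB1 (Zm00001d010574), a subunit of the NF-Y transcription factor that binds CCAAT boxes, had a 1138-base intron (chromosome 8, 120715060 to 120716197, plus strand). It was retained in 24.6%, 35.7% and 22.1% at 31°C and in 31.7%, 45.6% and 41.0% at 35°C at V4. At V5 it was retained in 20.5%, 69.8% and 31.7% at 31°C and in 25.1%, 8.7% and 44.8% at 35°C. The groups overlapped at both stages, and 1 of the V5 31°C libraries (69.8%) lay far above the other two. Its 37°C/33°C differences were -20.4 points at V4 and 16.3 points at V5, the reverse of the 35°C/31°C values, and the test of their difference gave an FDR of 0.37.

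PEBP (Zm00001d046300) belongs to the phosphatidylethanolamine-binding protein family, which includes FLOWERING LOCUS T, a mobile flowering signal in Arabidopsis. A 362-base intron (chromosome 9, 79371056 to 79371417, plus strand) was retained in 33.6%, 33.8% and 22% at 31°C and in 40.5%, 34.3% and 44.0% at 35°C at V4. At V5 it was retained in 37.7%, 40.3% and 41.7% at 31°C and in 25.3%, 19.2% and 24.8% at 35°C. The groups nearly met at V4 and lay well apart at V5, and did not overlap at either stage. At 33°C (33.7% ± 6.95 and 35.3% ± 4.93) and at 37°C (33.4% ± 5.39 and 33.6% ± 6.34, SD, n = 3 each) the means of the stages were close, and the 37°C/33°C values gave no call at either stage (FDR 0.99 and 0.93).

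**Figure D4:**
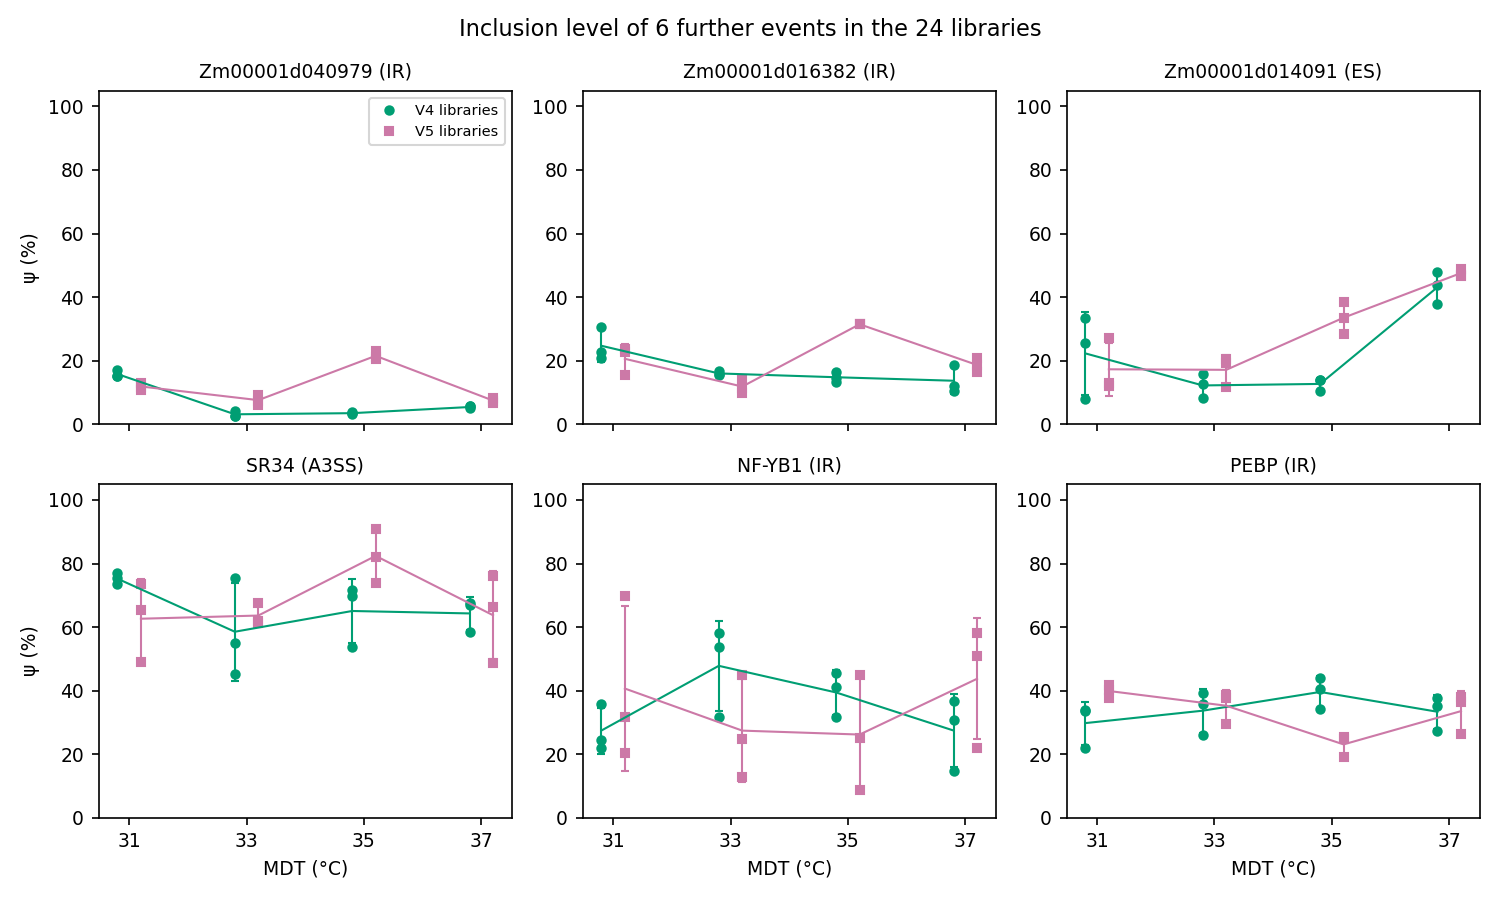
ψ (%) against MDT (°C) of 6 further events, drawn as single libraries (circles V4, squares V5) with mean and SD of 3 libraries. The intron of Zm00001d040979 was at 31°C highest at V4 and at 35°C highest at V5 with narrow bars, the exon of Zm00001d014091 was high at 37°C at both stages, and the bars of NF-YB1 are wide.

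Reads and spread moved with membership of the group. The 81 events had a median of 47.3 reads at V4 35°C and 57 reads at V5 35°C, against 84 and 104.5 reads for all eligible events. Fewer than 30 reads at one or the other stage were found for 27 of 81 events, against 422 of 3358 eligible events. At least 50 reads at both stages were found for 36 of 81 events, against 2261 of 3358. The mean ψ over all groups lay between 20% and 80% for 76 of 81 events (93.8%), against 49.0% of eligible events. In libraries that did not choose the events, the median SD of ψ over 3 libraries was 9.06 points at V4 33°C, 8.90 at V4 37°C, 7.50 at V5 33°C and 8.16 at V5 37°C. Among all eligible events it was 4.35, 4.23, 3.32 and 3.32 points. The dispersion of the reads around the fitted shares, where 1 stands for binomial sampling, had a median of 1.71 in the 81 events against 1.47 in eligible events for 37°C/33°C at V4, and of 1.48 against 1.41 at V5. The part of read number and spread in the opposite shifts was not tested.

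**Figure D5:**
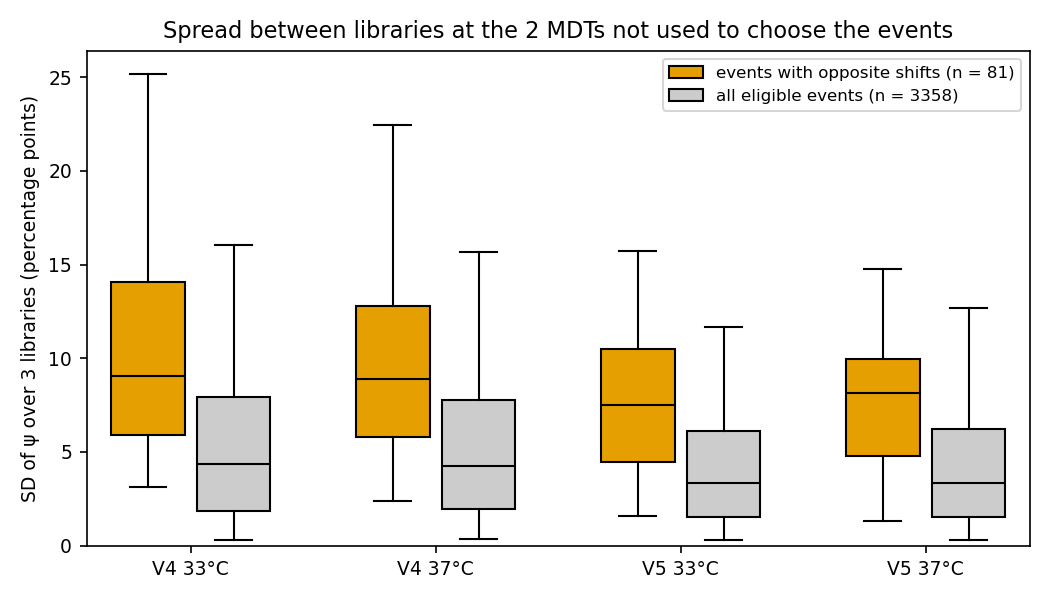
SD of ψ over 3 libraries (percentage points) at V4 and V5 for 33°C and 37°C, for the 81 selected events (orange) and all 3358 eligible events (grey). Boxes span the quartiles with the median as a line and whiskers reach the 5th and 95th percentiles; the medians of the selected events lie between 7.50 and 9.06 points, above the 3.32 to 4.35 points of all eligible events.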

How the data were processed

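Poly(A) RNA of 24 leaf libraries was sequenced, and the reads of W22 were mapped by the authors to the genome of another inbred line, B73, with HISAT2 2.0.4. AS events were detected with rMATS. The deposited counts of inclusion and skipping reads are raw reads per event and library. The deposited inclusion level is a fraction (0 to 1), for which the authors divided the counts by effective lengths, and is printed here in percent. It was recomputed from the reads within 0.001 for all 212443 values that allowed it. Each listed value holds at least 1 read of either isoform, so an event with reads of a single isoform is missing in that library. Columns were matched to samples by name, and 5 columns of single samples that could not be matched were left out. ψ of the V4 33°C libraries was therefore computed from reads and effective lengths. Inclusion reads of 2 of the V4 31°C libraries were worked out from ψ and skipping reads, and enter only mean read numbers. Gene IDs and 1-based positions follow B73 RefGen_V4. Sequences and gene descriptions of that release were not used here. The tables hold no expression levels, so the tissue was not checked against marker genes.

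Tests used the 33°C and 37°C libraries alone. Events entered with 10 or more reads on average and values in no fewer than 2 of the 3 libraries of every group. A quasi-binomial model was fitted in R 4.3.3, with the dispersion moderated across events by limma 3.58.1 and kept at 1 or above, and the FDR is that of Benjamini and Hochberg, computed separately for each AS type. edgeR 4.0.16 and limma on logit-transformed ψ were alternatives. Python 3.11.15 and pandas 2.3.3 prepared the tables. PCR copies of a molecule cannot be told from separate molecules. Similar or overlapping genes can share reads.

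Named were, 1 a gene, the 12 events with the largest shift at the stage where they shifted less and those called in any test. Those in the 15 genes named by the study and those next to the limit were named too. A few further events were named after their values were seen, which is said where they appear. Other selected events of a named gene are mentioned beside it. The events, the gene list and the tests were chosen with earlier results of these data known.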

Additional observations from a re-analysis of the deposited data

How the results depend on the processing

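The number of events with opposite shifts depended on its limits: a limit of 5 points gave 208 events, a limit of 10 points 51, and a mean of at least 50 reads 36, against 81. Leaving out 1 library at 31°C or 35°C gave between 80 and 106 events, and between 62 (without V4 31°C replicate 3) and 77 of the 81 remained. Values in all 3 libraries of each group raised the events called to 56 (of 19) for 37°C/33°C at V4, 107 (of 61) at V5 and 292 (of 172) for V5/V4 at 33°C, with 1 and 7 of the 81 events in the first and the last. An FDR of at most 5% gave 54, 137, 405, 156 (V5/V4 at 37°C) and 66 (difference between the stages) events, with 1 of the 81 for V4 and 8 for V5/V4 at 33°C. limma on logit-transformed ψ called 0, 0, 2, 0 and 0 events in these 5 comparisons, and 0 of the 81 in each. edgeR, run on events with a value in all libraries, called 11 events in the difference between the stages, and of the 81 events 1 at V4 and 5 for V5/V4 at 33°C. Same-numbered replicates were hardly correlated (from -0.024 to 0.063 over 2903 events). These values show no clear pairing by number but cannot exclude it, because sampling of reads also lowers such correlations. With the replicate number as a block, 29 events were called for V4, 310 for V5/V4 at 33°C and, of the 81, 6 for V5/V4 at 33°C, which include the 3 called without it.

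Without single libraries, 37°C/33°C at V4 gave 11 (without V4 33°C replicate 2) to 30 (without V4 37°C replicate 1) events, and 0 to 1 of the 81 (1 without V4 37°C replicate 2). At V5 it gave 33 (without V5 33°C replicate 3) to 61. V5/V4 at 33°C gave 128 to 144 events and 2 to 4 of the 81. At 37°C it gave 42 (without V5 37°C replicate 3) to 66, and the difference between the stages 18 to 31. The FDR of the exon of Zm00001d014091 was between 0.0022 and 0.0084 at V5 and between 0.020 and 0.096 at V4. At V4 it was 0.0083 with edgeR and 0.0036 with values in all 3 libraries of each group, which made it a call. A minimum of 20 reads, or none, left every count of calls within 1.5 times the main count.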
